A study of Homo sapiens with 32 samples.

Results

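The change between 24 and 72 h in the response of the leukaemia line Kasumi-1 to KDM1A inhibitors was examined, gene by gene, in the 16 Kasumi-1 libraries of a series of 32 libraries. These libraries were chosen by the cell line given in the labels, and the other 16 are of the line SKNO-1. Kasumi-1 cells were treated for 72 or 24 h with RN-1 at 1 µM, GSK690 at 1 µM, GSK690* at 1 µM or the vehicle DMSO at 0.1%, with 2 biological replicates in each of the 8 groups. RN-1 is an irreversible inhibitor of KDM1A, GSK690 is a reversible one, and GSK690* is the inactive isomer of that compound. All groups grew in RPMI with the same fetal calf serum. The response at one time is the mean of the 4 RN-1 and GSK690 libraries minus the mean of the 4 GSK690* and DMSO libraries, on the scale of log2(FPKM + 1), where FPKM is the number of fragments per kilobase of transcript, scaled to the mapped fragments of the library. The change in response is the response at 72 h minus the response at 24 h, and it was tested as an interaction term with limma. Where a gene is said to have risen, fallen or passed, its limma adjusted p is under 0.05.

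KDM1A (LSD1) removes methyl groups from lysine 4 of histone H3 as part of the CoREST complex, which transcription factors of the SNAG domain family, such as GFI1 and GFI1B, bring to enhancers and promoters. In myeloid leukaemia cells, inhibition of KDM1A is known to release genes repressed through GFI1, many of them genes of mature monocytes and macrophages. Kasumi-1 comes from an acute myeloid leukaemia with the translocation that fuses RUNX1 to RUNX1T1. The RNA is from bulk cultures, so fewer cells of a type and less RNA per cell cannot be told apart.

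The labelled cell type was checked against markers. The 7 myeloblast markers used for the check (RUNX1T1, KIT, CD34, CD33, MPO, PTPRC and SPI1) each reached 1 FPKM in all 16 libraries. MS4A1, HBB, PF4, KRT19 and COL1A2, markers of other cells, were listed at 0 in all 16, while EPCAM, an epithelial marker, stood at 61 to 83.5 FPKM throughout. All 72 h libraries of Kasumi-1 have names that begin with CM and all 24 h libraries have names that begin with SL, so time and library series cannot be told apart in any level set across the times. The response at each time is taken within one series, but the change in response compares one series with the other. A changed response therefore cannot be told apart from a difference between the series in how responses were measured. In each library, between 2.82% and 3.9% of all FPKM came from the top 10 genes at 72 h, and between 6.69% and 8% at 24 h. MPO, the myeloperoxidase of neutrophil granules, stood at 2190 to 2940 FPKM at 72 h and at 5070 to 6610 FPKM at 24 h. Counts were not used, and depth is therefore unknown. The p-values measure the spread between replicates of both lines, because each gene's spread was estimated over all 32 libraries, those of SKNO-1 included.

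Responses at both times were common, and changes in response that passed were rare. Of 11885 genes tested, 24 passed for a change in response (0.202%), 23 with a higher response at 72 h (0.194%) and 1 with a lower one (0.00841%). At an unadjusted p under 0.05 there were 622 genes (5.23%), near the share of 0.05 that this threshold lets through when no response changes. At 72 h 3052 of 11887 genes passed (25.7%), of which 1547 rose (13%) and 1505 fell (12.7%), and at 24 h 2479 passed (20.9%), of which 1152 rose (9.69%) and 1327 fell (11.2%). Of the genes tested for the change in response, 1547 rose at 72 h and 1151 at 24 h, and 940 rose at both times, which is 60.8% and 81.7% of these. Of those that fell, 781 did so at both times (51.9% and 58.9%), and no gene passed in opposite directions. The responses correlated across all genes with a Pearson r of 0.85, a description in which genes are not independent replicates.

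The genes were sorted by how their response moved. A gene was called growing when its change passed, its response at 72 h passed and the 72 h response was the larger, and fading when its change and its response at 24 h passed and the 24 h response was the larger. A gene was called holding when it rose at both times or fell at both times, its change did not pass, and the 95% interval of the change stayed within 1.5-fold (0.585 on the log2 scale) either way. By these rules 23 genes were growing, all of them upward, 1 gene was fading, and 1460 were holding (12.3% of the genes tested), 703 upward and 757 downward. Of the 3809 genes that passed at either time, 38.3% were holding and 61% could be placed in none of these classes. Median responses of holding genes were 0.47 at 72 h and 0.42 at 24 h upward, and -0.33 at both times downward. These are smaller in size than the limit of 0.585, so the limit alone does not show that responses of that size were kept. At 2-fold or more, 189 genes passed at either time, of which 42 were holding, 16 growing and 131 unplaced. Among the 173 genes that rose at least 2-fold at 72 h, 156 had the larger response at 72 h, with a median change of 0.40. Choosing by the 72 h response favours a larger value at 72 h. Among the 77 genes chosen instead for a rise of at least 2-fold at 24 h, 57 had the larger response at 72 h, with a median change of 0.21.

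**Figure D1:**
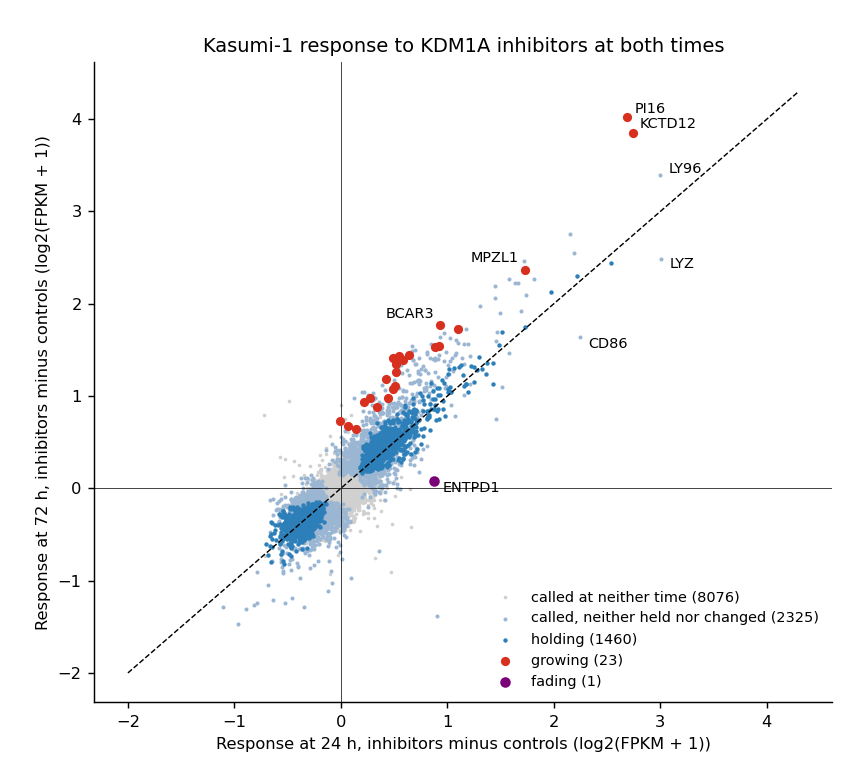
Each point is 1 of 11885 genes, with its response at 24 h on the horizontal axis and at 72 h on the vertical axis, both as log2(FPKM + 1) of 4 inhibitor minus 4 control libraries; the dashed line marks equal responses. The 23 growing genes lie above the line, PI16 (4.02 at 72 h, 2.69 at 24 h) and KCTD12 (3.85 and 2.74) farthest up, and ENTPD1 (0.08 and 0.88) lies below it.

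PI16 and KCTD12, which had the largest responses of all 24 genes at both times, also grew the most. PI16 (hg19 chr6:36922208-36932613) encodes a secreted peptidase inhibitor family glycoprotein. At 72 h PI16 stood at 19.2 and 14.3 FPKM with RN-1 and at 15.1 and 15.0 FPKM with GSK690, against 0.0149 and 0 FPKM with GSK690* and 0.115 and 0.0173 FPKM with DMSO. At 24 h it stood at 4.41 and 7.95 FPKM with RN-1 and at 5.39 and 5.78 FPKM with GSK690, against 0.0649 and 0.103 FPKM with GSK690* and 0.0283 and 0 FPKM with DMSO. All inhibitor libraries were high and all controls near 0 at both times, and every inhibitor library at 72 h lay above every one at 24 h. Its response was 4.02 ± 0.12 (SE) at 72 h and 2.69 at 24 h, and the change of 1.33 ± 0.17 passed (adjusted p = 4.25e-04). With a pseudocount of 0.1 FPKM, on a scale that gives more weight to its near-zero controls, the change of PI16 was 1.58 and did not pass (adjusted p = 0.532). KCTD12 (hg19 chr13:77454311-77460540) encodes an auxiliary subunit of GABA-B receptors. It stood at 26.9 and 28.8 FPKM with RN-1 and at 36.5 and 34.7 FPKM with GSK690 at 72 h, against 1.24 and 1.06 FPKM with GSK690* and 1.58 and 1.17 FPKM with DMSO. At 24 h the values of KCTD12 were 17.2 and 16.7 FPKM with RN-1 and 18.2 and 18.0 FPKM with GSK690, against 1.87 and 1.63 FPKM with GSK690* and 1.93 and 1.68 FPKM with DMSO. At 72 h its inhibitor libraries were all higher, and its control libraries all lower, than at 24 h. The response was 3.85 ± 0.097 at 72 h and 2.74 at 24 h, and the change of 1.11 ± 0.14 passed (adjusted p = 4.25e-04) and kept its call under every alternative that was run.

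The promoters of 4 genes are shown because they carry a motif of a factor tied to this system: PI16 and the fading gene ENTPD1 with the RUNX motif TGTGGT, and BCAR3 and ITM2A with the GFI1 motif (AAATC, any 3 bases, then GC). Each window runs from 250 bases before to 50 bases after a start site given by RefSeq on GRCh38.p14. That is another build than the hg19 of the deposited loci. A gene can have other start sites, and which of them these cells use was not tested. Capitals mark the matches, read on either strand, and BCAR3 also holds a CEBP motif (TTGCNNAA), the second stretch in capitals. The windows are PI16 chr6:36948046-36948345 on the plus strand, BCAR3 chr1:93681788-93682087 on the minus strand, ITM2A chrX:79367285-79367584 on the minus strand and ENTPD1 chr10:95755913-95756212 on the plus strand.
PI16: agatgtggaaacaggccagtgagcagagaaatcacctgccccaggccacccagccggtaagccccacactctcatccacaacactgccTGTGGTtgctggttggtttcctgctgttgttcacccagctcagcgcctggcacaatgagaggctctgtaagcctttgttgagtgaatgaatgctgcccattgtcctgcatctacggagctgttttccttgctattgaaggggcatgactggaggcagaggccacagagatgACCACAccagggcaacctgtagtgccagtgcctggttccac
BCAR3: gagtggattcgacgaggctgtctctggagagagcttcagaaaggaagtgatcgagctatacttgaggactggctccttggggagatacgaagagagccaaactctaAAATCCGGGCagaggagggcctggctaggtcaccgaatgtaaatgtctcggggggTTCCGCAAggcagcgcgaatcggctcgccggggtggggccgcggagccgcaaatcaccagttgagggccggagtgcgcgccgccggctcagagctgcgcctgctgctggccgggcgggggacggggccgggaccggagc
ITM2A: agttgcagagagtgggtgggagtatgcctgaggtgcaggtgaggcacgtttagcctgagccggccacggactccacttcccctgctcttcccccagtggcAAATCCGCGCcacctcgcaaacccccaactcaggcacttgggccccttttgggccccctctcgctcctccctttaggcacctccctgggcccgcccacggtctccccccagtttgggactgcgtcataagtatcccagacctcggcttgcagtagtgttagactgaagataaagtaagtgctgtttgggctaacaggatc
ENTPD1: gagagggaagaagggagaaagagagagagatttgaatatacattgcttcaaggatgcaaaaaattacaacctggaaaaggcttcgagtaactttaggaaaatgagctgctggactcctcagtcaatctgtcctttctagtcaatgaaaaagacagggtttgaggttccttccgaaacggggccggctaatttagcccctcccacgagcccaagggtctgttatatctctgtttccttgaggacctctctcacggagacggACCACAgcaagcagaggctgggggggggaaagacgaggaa

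Of the 23 growing genes, 16 have a promoter in the RefSeq table. The GFI1 motif stood in 2 of these 16 (12.5%), BCAR3 and ITM2A, against 2.47% of the 9580 promoters of all genes tested. The RUNX motif stood in 4 (25%), PI16, CERKL, IL21R and RGS18, against 9.43% of all. A CEBP motif stood in 2 (12.5%), BCAR3 and RGS18, against 6.89% of all. The motifs of SPI1 (GAGGAAGT), AP-1 (TGANTCA), the interferon response (GAAA, any 2 bases, then GAAA) and the sterol response (TCACNCCA) stood in none of the 16. A match is only a stretch of letters, and these counts describe a handful of windows.

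FXYD7, MARCKS, BCAR3 and APOL3 were low in all controls and had a response at 72 h that was well above that at 24 h. FXYD7 (hg19 chr19:35634153-35645204) encodes a small regulator of the sodium pump. FXYD7 stood at 2.84 and 1.81 FPKM with RN-1 and 2.78 and 1.84 FPKM with GSK690 at 72 h, against 0.247 and 0.228 FPKM with GSK690* and 0.242 and 0.227 FPKM with DMSO. At 24 h FXYD7 stood at 0.466 and 0.47 FPKM with RN-1 and 0.758 and 0.607 FPKM with GSK690, against 0.171 and 0.107 FPKM with GSK690* and 0.0558 and 0.132 FPKM with DMSO. The groups did not overlap at either time, and the change of 0.91 ± 0.13 passed (adjusted p = 0.00211). MARCKS (hg19 chr6:114178540-114184648), a substrate of protein kinase C that binds actin, averaged 2.42 ± 0.598 FPKM with the inhibitors and 0.252 ± 0.0684 FPKM in controls at 72 h, and 0.825 ± 0.138 FPKM against 0.253 ± 0.127 FPKM at 24 h (SD, n = 4 each). Its control level was alike at both times, and its change was 0.89 ± 0.15 (adjusted p = 0.00858). BCAR3 (hg19 chr1:94027346-94312706), an adaptor protein of integrin and growth factor signalling, averaged 3.76 ± 0.483 FPKM against 0.400 ± 0.161 FPKM at 72 h and 1.67 ± 0.183 FPKM against 0.396 ± 0.134 FPKM at 24 h (inhibitors against controls, SD, n = 4 each). APOL3 (hg19 chr22:36536371-36562225), a member of the apolipoprotein L family, averaged 2.15 ± 0.277 FPKM against 0.241 ± 0.073 FPKM at 72 h and 0.704 ± 0.0532 FPKM against 0.192 ± 0.0516 FPKM at 24 h. BCAR3 and APOL3 each had a change of 0.83 (SE 0.14 and 0.13). These 4 genes lie at low levels, where the scale of log2(FPKM + 1) understates fold changes. With a pseudocount of 0.1 FPKM the changes were larger, at 1.17 for FXYD7 (adjusted p = 0.679), 1.13 for BCAR3 (0.869) and 1.27 for APOL3 (0.472), and these did not pass, while that of MARCKS (1.38, 0.0224) did.

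**Figure D2:**
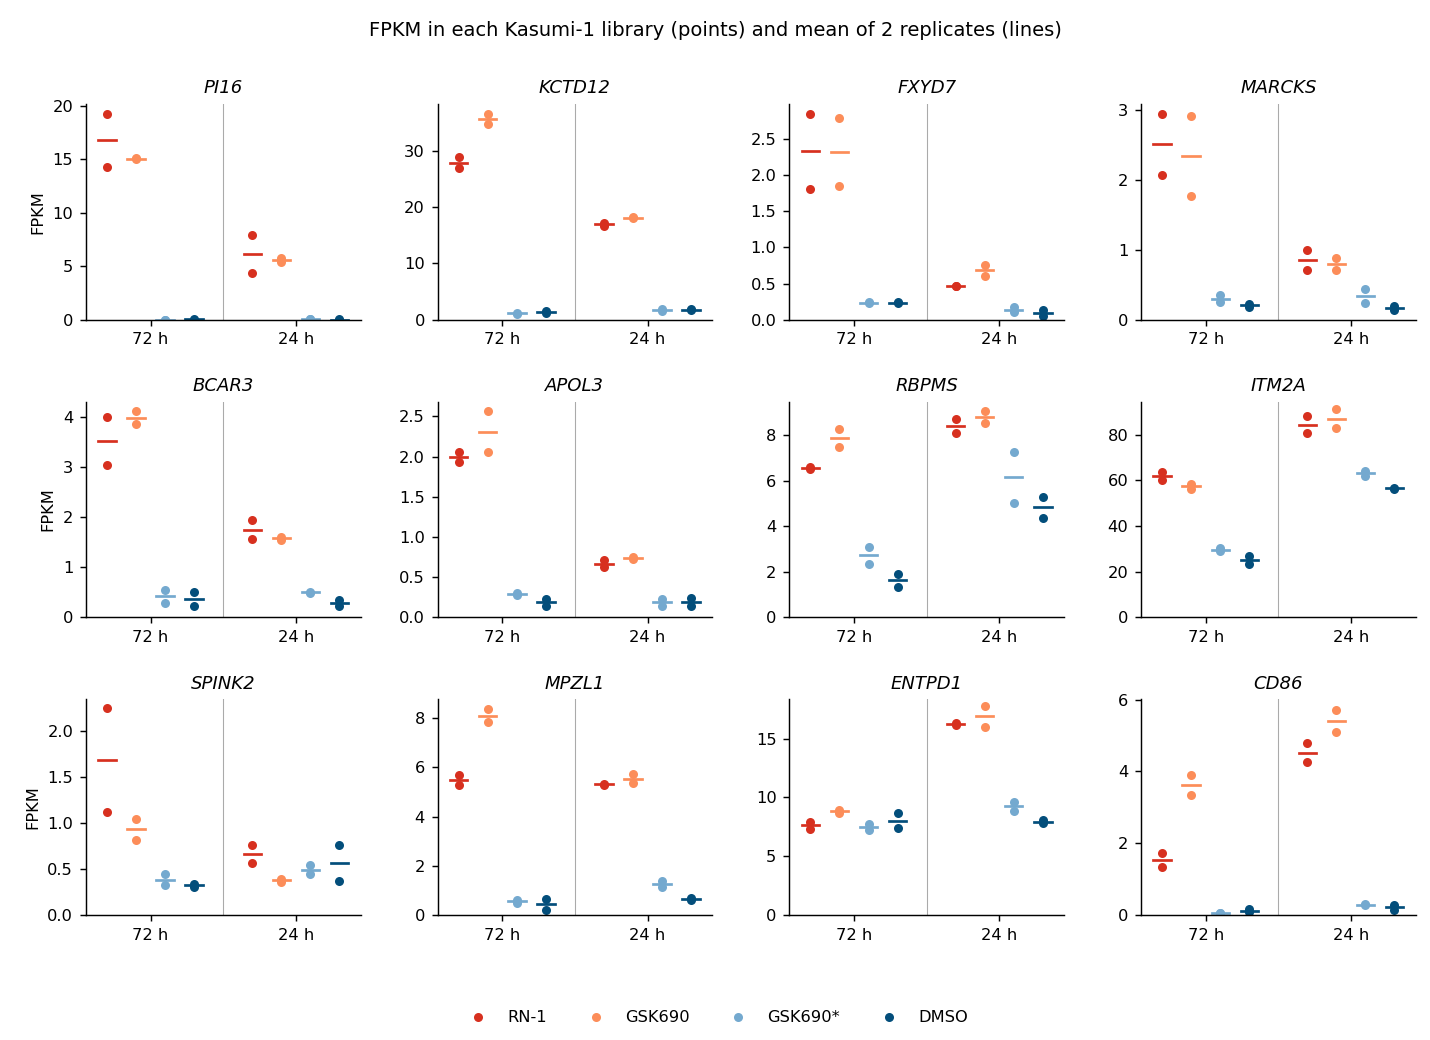
Points give the FPKM of each Kasumi-1 library and lines the mean of 2 replicates, with the 4 agents at 72 h left and at 24 h right in each of 12 panels. KCTD12 stands at 26.9 to 36.5 FPKM with inhibitors at 72 h and at 16.7 to 18.2 FPKM at 24 h, while inhibitors and controls of ENTPD1 overlap at 72 h (7.36 to 8.94 against 7.22 to 8.66 FPKM) and not at 24 h.

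In 4 growing genes the level with inhibitors was lower at 72 h than at 24 h, and the control level was lower still. Among them are RBPMS, an RNA-binding protein, ITM2A, a membrane protein first described in cartilage and T cells of the mouse, and C1orf186, also called RHEX. ITM2A (hg19 chrX:78615880-78623164) stood at 60 and 63.7 FPKM with RN-1 and 56.4 and 58.5 FPKM with GSK690 at 72 h, against 28.9 and 30.2 FPKM with GSK690* and 26.9 and 23.2 FPKM with DMSO. At 24 h ITM2A stood at 80.5 and 88.2 FPKM with RN-1 and 82.9 and 91.0 FPKM with GSK690, against 64.2 and 62.0 FPKM with GSK690* and 56.6 and 56.4 FPKM with DMSO. The groups did not overlap at either time, and its change of 0.59 ± 0.1 passed (adjusted p = 0.00858). C1orf186 averaged 7.13 ± 0.621 FPKM with inhibitors and 4.09 ± 0.354 FPKM in controls at 72 h, and 10.0 ± 0.928 FPKM against 9.53 ± 1.15 FPKM at 24 h, when the groups overlapped (SD, n = 4 each). Its change was 0.60 ± 0.12 (adjusted p = 0.0337). RBPMS averaged 7.21 ± 0.832 FPKM against 2.19 ± 0.739 FPKM at 72 h and 8.62 ± 0.405 FPKM against 5.50 ± 1.26 FPKM at 24 h, a change of 0.81 ± 0.14. Levels across the times were read against the shift of the median gene, which was 0.23 in inhibitor and 0.22 in control libraries (72 h minus 24 h). Relative to that shift, the control levels of the 4 genes were lower at 72 h by more than 1 on the log2 scale, with values of -1.26 for RBPMS and C1orf186 and -1.33 for ITM2A. In the other 19 growing genes the inhibitor level lay above the shift of the median gene, by 0.03 for MPZL1 to 1.30 for COL6A2. Since time goes with library series, neither kind of level change can be told apart from a difference between the series.

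**Figure D3:**
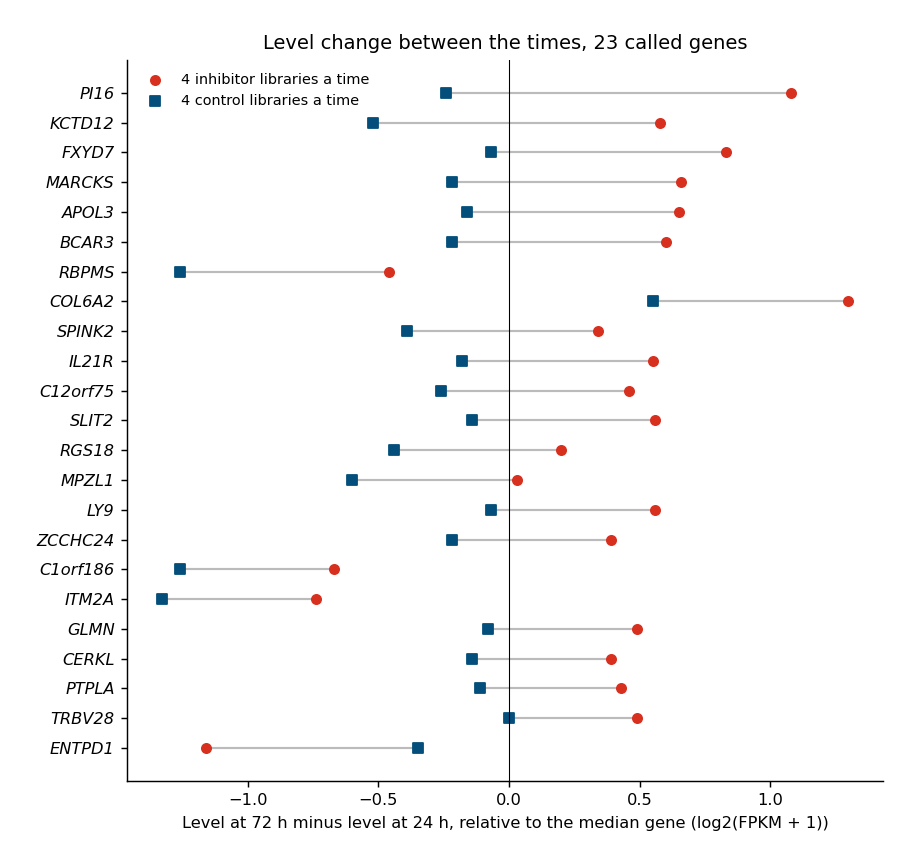
For each of 23 of the 24 genes, the horizontal axis gives the level at 72 h minus the level at 24 h, relative to the median gene, in log2(FPKM + 1), as a circle for the 4 inhibitor and a square for the 4 control libraries a time. Circles lie right of squares in the 22 growing genes shown and left in ENTPD1 (-1.16 against -0.35), and both lie left of 0 in RBPMS, C1orf186, ITM2A and ENTPD1.

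COL6A2 and SPINK2 are also among the 10 growing genes with the largest changes. COL6A2 (hg19 chr21:47518010-47552763), a chain of collagen VI, was the growing gene whose control level also stood above the shift of the median gene, by 0.55. COL6A2 averaged 6.17 ± 0.854 FPKM with inhibitors and 2.16 ± 0.37 FPKM in controls at 72 h, and 1.51 ± 0.452 FPKM against 0.853 ± 0.214 FPKM at 24 h, a change of 0.76 ± 0.13 (adjusted p = 0.00858). SPINK2 (hg19 chr4:57676025-57687908), a serine protease inhibitor of blood stem and progenitor cells, was the 1 member of the gene lists whose change passed. SPINK2 stood at 2.25 and 1.12 FPKM with RN-1 and 1.05 and 0.818 FPKM with GSK690 at 72 h, against 0.329 and 0.444 FPKM with GSK690* and 0.344 and 0.31 FPKM with DMSO. At 24 h it stood at 0.762 and 0.57 FPKM with RN-1 and 0.399 and 0.366 FPKM with GSK690, against 0.443 and 0.546 FPKM with GSK690* and 0.759 and 0.376 FPKM with DMSO. The groups overlapped at 24 h and not at 72 h, where 1 RN-1 library was the highest. Its change of 0.74 ± 0.15 (adjusted p = 0.036) passed in 2 of 16 fits that each left out 1 library.

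The other 13 growing genes are named here because they passed, not by the rule for named genes. MPZL1, a membrane glycoprotein of the immunoglobulin superfamily, had a response of 2.37 at 72 h and 1.73 at 24 h, and RGS18, a regulator of G protein signalling in platelets and myeloid cells, of 1.53 and 0.88. SLIT2, a secreted ligand of ROBO receptors, averaged 1.65 ± 0.49 FPKM with inhibitors and 0.329 ± 0.0997 FPKM in controls at 72 h, and 0.519 ± 0.131 FPKM against 0.255 ± 0.0869 FPKM at 24 h, a change of 0.70 ± 0.11. GLMN, a regulator of cullin ubiquitin ligases, PTPLA (HACD1), an enzyme of very long chain fatty acid synthesis, and CERKL, a relative of ceramide kinase, were among the more abundant of the 13. GLMN averaged 54.1 ± 3.0 FPKM against 25.3 ± 2.6 FPKM at 72 h and 32.5 ± 1.67 FPKM against 23.0 ± 3.19 FPKM at 24 h, with no overlap at either time. The changes of ZCCHC24 (0.62) and C12orf75 (0.72) passed as well. Over all 23 growing genes the groups did not overlap in 23 at 72 h and in 18 at 24 h, where 28.7% and 32.6% of all genes did not. At 24 h 19 of the 23 had already passed, and SPINK2, C12orf75, C1orf186 and TRBV28 had not.

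Also growing were IL21R, LY9 and TRBV28, set together here after they passed, while none of the tested genes of the T and NK cell list or of the B cell list was growing. IL21R is the receptor of interleukin 21, LY9 is a receptor of the SLAM family, and TRBV28 is a variable segment of the T cell receptor beta locus. IL21R stood at 1.32 and 1.61 FPKM with RN-1 and 1.4 and 1.71 FPKM with GSK690 at 72 h, against 0 to 0.115 FPKM in the 4 controls. At 24 h IL21R stood at 0.503 and 0.568 FPKM with RN-1 and 0.303 and 0.494 FPKM with GSK690, against 0 to 0.0464 FPKM in controls. The change of IL21R was 0.74 ± 0.13 (adjusted p = 0.00858), that of LY9 was 0.63 ± 0.13 (0.0328) and that of TRBV28 was 0.50 ± 0.092 (0.016). None of these genes passed with a pseudocount of 0.1 FPKM or with DMSO alone as control. LY9 also did not pass with quantile or median of ratios scaling, nor in a fit on the Kasumi-1 libraries alone. The 4 T and NK cell markers (CD3E, CD3D, CD8A and NKG7, 2 of which reached 1 FPKM) summed to 3.84 to 4.76 FPKM with inhibitors and 1.61 to 2.98 FPKM in controls at 72 h, and to 2.68 to 3.59 FPKM against 1.91 to 2.58 FPKM at 24 h. None of the 4 was listed at 0 in every library, but CD3E was at most 0.472 FPKM and CD3D at most 0.306 FPKM, so the defining markers of T cells were near 0.

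The number of genes that passed moved with single libraries and with the pseudocount. Without DMSO replicate 2 at 24 h 15 genes passed, without GSK690* replicate 1 at 72 h also 15, and without RN-1 replicate 1 at 24 h 14. Without GSK690* replicate 1 at 24 h 15 genes were growing. Of the 24 genes, 13 kept their call in all 16 such fits and 10 kept it with a pseudocount of 0.1 FPKM. In 9 of the 24, every control library was under 1 FPKM. RGS18 lay just inside the threshold (adjusted p = 0.0477), and HDAC11 (change 0.53), CD4 (-0.47), HOPX (0.85) and COL27A1 (0.55) lay just outside it (0.0523).

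ENTPD1 was the gene whose response faded. ENTPD1 (CD39, hg19 chr10:97471535-97637023) is a surface enzyme that breaks down extracellular ATP and ADP. At 72 h it stood at 7.36 and 7.94 FPKM with RN-1 and 8.94 and 8.70 FPKM with GSK690, against 7.75 and 7.22 FPKM with GSK690* and 8.66 and 7.42 FPKM with DMSO. At 24 h ENTPD1 stood at 16.2 and 16.3 FPKM with RN-1 and 17.8 and 16.0 FPKM with GSK690, against 9.60 and 8.88 FPKM with GSK690* and 7.80 and 8.08 FPKM with DMSO. The groups were far apart at 24 h and overlapped at 72 h. The response was 0.08 ± 0.11 at 72 h (adjusted p = 0.667) and 0.88 at 24 h, and the change was -0.80 ± 0.16 (adjusted p = 0.0285). It passed in 3 of the 16 fits that left out 1 library, with an adjusted p of up to 0.0973, and its change was negative in all of them.

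A smaller response at 72 h was also measured in CD86, LYZ, CXCL1, IL8 and CLEC12A, the last 3 of them chosen after their values were seen and for this direction, and none of these changes passed. In the list of cytokines, chemokines and NF-kB response genes as a whole, 7 of 13 changes were above 0, with a median of 0.06, and TNF had the larger response at 72 h (1.5, against 0.69 at 24 h). CD86, a ligand that costimulates T cells, stood at 1.73 and 1.34 FPKM with RN-1 and 3.9 and 3.35 FPKM with GSK690 at 72 h, against 0.0705 to 0.163 FPKM in the 4 controls. At 24 h CD86 stood at 4.25 and 4.78 FPKM with RN-1 and 5.1 and 5.72 FPKM with GSK690, against 0.143 to 0.3 FPKM in controls. The RN-1 libraries were lower than the GSK690 libraries at both times. The change of -0.61 ± 0.13 missed the threshold (adjusted p = 0.0569) and passed under 5 of the alternatives. With a pseudocount of 0.1 FPKM, which gives more weight to its near-zero controls, the change of CD86 was -0.22 and did not pass. The smaller response at 72 h thus depends largely on the pseudocount. Mean FPKM was 2.58 with inhibitors against 0.1 in controls at 72 h, and 4.97 against 0.254 at 24 h. LYZ, the lysozyme of monocytes and granulocytes, had a response of 2.48 at 72 h and 3.01 at 24 h (change -0.52 ± 0.25, adjusted p = 0.931). CXCL1, a neutrophil chemokine, stood at 0.696 to 0.905 FPKM with inhibitors at 72 h, overlapping the control range of 0.709 to 0.982 FPKM, and at 1.42 to 2.23 FPKM against 0.711 to 1.08 FPKM at 24 h (change -0.57, adjusted p = 0.09). IL8 (CXCL8), another neutrophil chemokine, had responses of 0.75 and 1.46 (change -0.70, adjusted p = 0.568), and CLEC12A, an inhibitory lectin receptor of myeloid cells, had responses of 0.18 and 0.74 (-0.56, adjusted p = 0.639).

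The strongest holding genes rose about as much at 72 h as at 24 h. MS4A4A, a membrane protein of macrophages, had a response of 2.45 at 72 h and 2.54 at 24 h, and its change of -0.09 had a 95% interval of -0.54 to 0.35. MS4A4A stood at 4.06 to 6.59 FPKM with inhibitors against 0 to 0.265 FPKM in controls at 72 h, and at 4.56 to 6.98 FPKM against 0.066 to 0.349 FPKM at 24 h. GPR65, an acid-sensing receptor, stood at 4.41 to 6.35 FPKM against 0.677 to 1.30 FPKM at 72 h and at 4.77 to 6.16 FPKM against 0.515 to 1.59 FPKM at 24 h. Neither gene's groups overlapped at either time, and the ranges with inhibitors nearly coincided across the times. SERPINB8, an intracellular serpin, SIRPB2, a signal regulatory protein, TRIM34 and TMEM243 are the other 4 upward holding genes that the rule named. SERPINB8, for example, stood at 28.5 to 35.4 FPKM against 4.51 to 7.90 FPKM at 72 h and at 22.5 to 24.7 FPKM against 2.61 to 6.65 FPKM at 24 h. Both the inhibitor and the control levels of SERPINB8 were higher at 72 h, and the interval of its change was -0.20 to 0.37.

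Holding genes that fell did so by less. UBE2J1, a ubiquitin-conjugating enzyme of the endoplasmic reticulum, stood at 14.3 to 15.0 FPKM with inhibitors against 23.0 to 29.1 FPKM in controls at 72 h, and at 18.0 to 20.8 FPKM against 25.5 to 30.4 FPKM at 24 h. Its interval, -0.50 to -0.07, lay below 0 yet within the limit of 1.5-fold. KCNK5, a potassium channel, stood at 5.93 to 6.66 FPKM against 10.7 to 11.6 FPKM at 72 h and at 5.53 to 6.67 FPKM against 8.64 to 10.6 FPKM at 24 h. The levels with inhibitors were alike at both times in KCNK5. MMAB, an enzyme of vitamin B12 metabolism, and DNAAF3, an assembly factor of axonemal dynein, were the other downward genes named by the rule. Their intervals were -0.51 to 0.22 and -0.46 to 0.38.

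Regulators and surface markers of the lineage were followed whatever their values. KDM1A itself has no deposited value in either DMSO group, so its response could not be fitted; the values present were 68.3 and 71.3 FPKM with inhibitors and 75.1 FPKM with GSK690* at 72 h, and 60.9 to 66.2 FPKM with inhibitors and 69.7 FPKM with GSK690* at 24 h. GFI1, the repressor that brings KDM1A to its targets, was holding, with a change of 0.11 and an interval of -0.09 to 0.30. GFI1B stood at 0.401 FPKM or less in all 16 libraries. KIT, the stem cell factor receptor, fell at both times (-0.52 and -0.38) and was holding. CD34, a progenitor surface marker, stood at 201 to 245 FPKM with inhibitors against 68.6 to 105 FPKM in controls at 72 h, and at 107 to 150 FPKM against 63.9 to 91.8 FPKM at 24 h. Its groups overlapped at neither time, and its change of 0.67 ± 0.31 did not pass (adjusted p = 0.926). ITGAM, which encodes CD11b, an integrin subunit of mature myeloid cells, stood at 2.41 to 4.48 FPKM with inhibitors against 0.377 to 0.826 FPKM in controls at 72 h, and at 1.3 to 1.53 FPKM against 0.241 to 0.657 FPKM at 24 h, a change of 0.67 that did not pass either (adjusted p = 0.926). LY96, the MD-2 partner of the endotoxin receptor TLR4, had a change of 0.40 (adjusted p = 0.975). The myeloid transcription factors SPI1 and CEBPA and the fusion partner RUNX1T1 passed at neither time, and MYC fell at 72 h (-0.48) with a change of -0.25 that did not pass.

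Each inhibitor was also set against a control of its own, so that the pairs share no library. RN-1 minus DMSO gave 0 of 11888 genes with a changed response in limma (0%; 582 at an unadjusted p under 0.05), and GSK690 minus GSK690* gave 5 of 11887 (0.0421%; 298 unadjusted). The 5 were PI16 (1.39), KCTD12 (1.29), SLIT2 (1.05), MPZL1 (1.01) and TRBV28 (0.71), and 4 of them had an unadjusted p under 0.05 in the RN-1 pair. In the GSK690 pair, 2 genes passed without GSK690* replicate 1 at 72 h, and 0 passed when any 1 of these 5 libraries was left out: GSK690 replicate 1 or 2 at 24 h, GSK690 replicate 2 at 72 h, GSK690* replicate 1 at 24 h and GSK690* replicate 2 at 72 h. In all 23 growing genes the change was above 0 in both pairs, with a median of 0.71 for RN-1 and 0.73 for GSK690, values that the choice of the genes helps to fix. The 582 genes of the RN-1 pair and the 298 of the GSK690 pair were 4.9% and 2.51% of those tested. A threshold of 0.05 lets through about as many or more when no response changes. The estimate had the same sign in the other pair in 72.9% of the 582 and in 75.8% of the 298, against 51.2% of all genes.

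RN-1 and GSK690 were then compared with each other. No gene passed for a difference between them in the change over time (0 of 11887 in limma, 0%; 268 at an unadjusted p under 0.05), with a 95% interval of, in the median, 0.40 either side of the estimate. Among growing genes the widest gaps were in SLIT2 (0.36 in the RN-1 pair, 1.05 in the GSK690 pair) and MPZL1 (0.27 and 1.01). MPZL1 stood at 5.26 and 5.70 FPKM with RN-1 and at 7.85 and 8.34 FPKM with GSK690 at 72 h, and at 5.32 and 5.28 FPKM and 5.71 and 5.37 FPKM at 24 h. At 72 h the GSK690 libraries of MPZL1 lay above the RN-1 libraries, and at 24 h all 4 were close together. CD86 had a change of -1.02 in the RN-1 pair (adjusted p = 0.0689) and of -0.20 in the GSK690 pair. Both values are on the scale of log2(FPKM + 1), and the smaller response of CD86 at 72 h depends largely on the pseudocount. The controls differed less: GSK690* minus DMSO gave 0 of 11888 genes with a changed difference (0%; 120 at an unadjusted p under 0.05), and over the 23 growing genes it ran from -0.31 to 0.22.

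**Figure D4:**
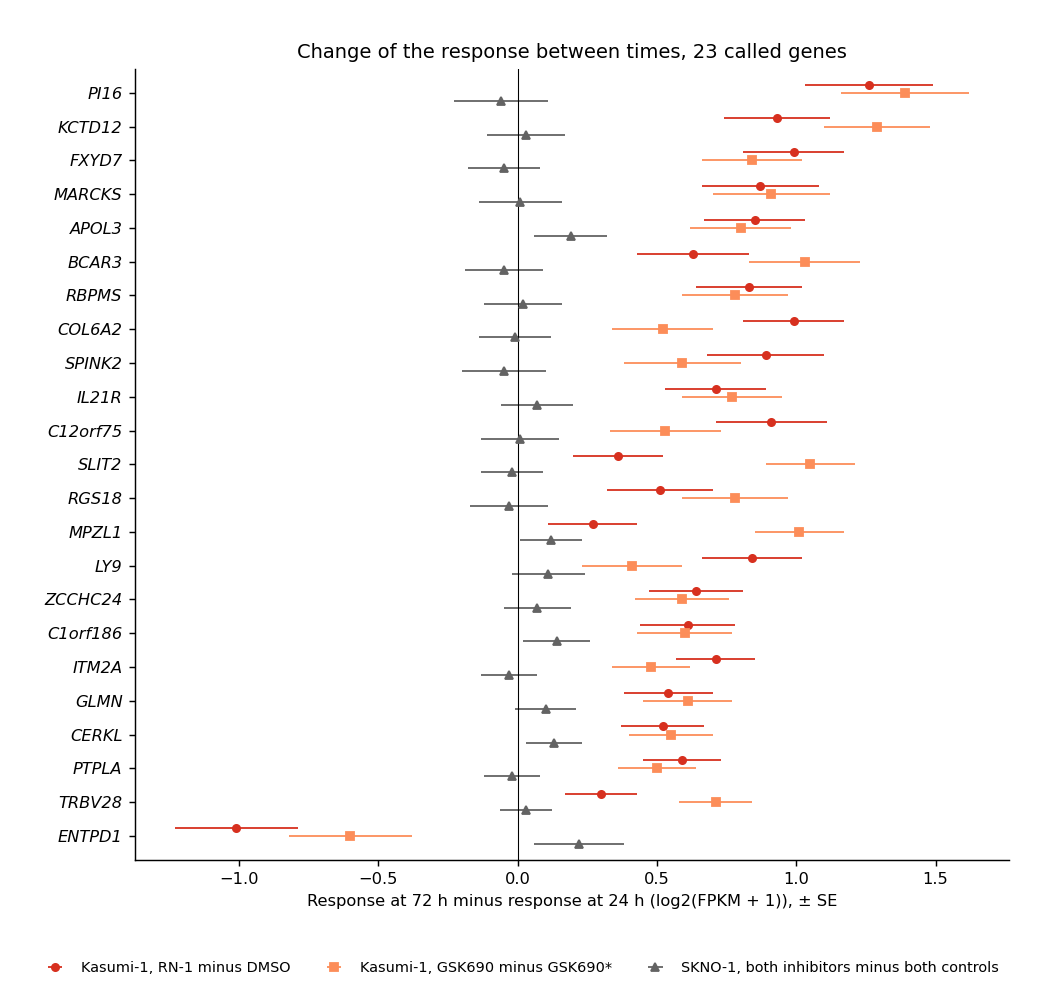
For each of 23 of the 24 genes, the horizontal axis gives the response at 72 h minus that at 24 h in log2(FPKM + 1), with SE bars, for RN-1 minus DMSO (circles) and GSK690 minus GSK690* (squares) in Kasumi-1 and for inhibitors minus controls in SKNO-1 (triangles). Circles and squares lie right of 0 in the 22 growing genes shown (0.27 to 1.26 and 0.41 to 1.39), and the triangles of these genes lie between -0.06 and 0.19.

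In SKNO-1, a second line with the same fusion gene, 0 of 11887 genes passed for a change in response (0% by limma; 153 at an unadjusted p under 0.05). Among the 23 growing genes of Kasumi-1 the SKNO-1 change ran from -0.06 to 0.19, with a median of 0.02 and 14 above 0. In SKNO-1 8 of the 23 rose at 72 h, where 11.1% of all genes passed (6.91% rose and 4.16% fell), and 8 rose at 24 h, where 9.08% passed (5.64% rose and 3.44% fell). KCTD12, for example, rose in SKNO-1 by 1.73 at 72 h and by 1.70 at 24 h, and MARCKS by 0.84 and 0.83. PI16 had responses of 0.10 and 0.16 there and passed at neither time. The difference between the lines in the change itself passed for no gene (0 of 11882 in limma, 0%; 343 at an unadjusted p under 0.05), the lowest adjusted p among the growing genes being 0.0768 for PI16. The titles give 72 h for the later SKNO-1 libraries and the treatment text gives 4 days, so the later times of the lines may differ. The names of these later libraries begin with CM in 2 and with CP in 6, and all 8 at 24 h begin with SL. The CM libraries are replicate 1 of DMSO and of RN-1, so the replicates of these groups differ in prefix. What this does to the SKNO-1 comparison was not tested.

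Fewer mitosis genes passed at 72 h than at 24 h. Of 28 mitosis genes tested, 12 fell at 72 h and 27 at 24 h, where 12.7% and 11.2% of all genes fell. Their median responses were -0.24 and -0.44. The change was above 0 in 27 of the 28, with a median of 0.20, against 53.7% of all genes and a median of 0.01, but none of the 28 passed for it. CDK1, the kinase that drives entry into mitosis, stood at 79.5 to 91.4 FPKM with inhibitors and 89.8 to 99.3 FPKM in controls at 72 h, and at 58.4 to 68.1 FPKM against 75.5 to 95.1 FPKM at 24 h. The groups of CDK1 overlapped at 72 h and not at 24 h (change 0.31 ± 0.11, adjusted p = 0.699). PTTG1, the securin that holds sister chromatids together, came nearest to passing, with 30.9 to 39.5 FPKM against 29.8 to 33.2 FPKM at 72 h and 19.9 to 22.4 FPKM against 23.5 to 30.4 FPKM at 24 h (change 0.45 ± 0.1, adjusted p = 0.0788). CENPE, a kinetochore motor, was the exception below 0 (-0.03). Of 30 DNA replication genes, 22 fell at 72 h and 24 at 24 h (medians -0.30 and -0.40). Of these 30, 19 were holding, as were 12.3% of all genes, and the median change was 0.15. PCNA, the sliding clamp, stood at 107 to 131 FPKM against 141 to 143 FPKM at 72 h and at 85.0 to 96.3 FPKM against 124 to 143 FPKM at 24 h. MCM4, a subunit of the replicative helicase, fell alike at both times (-0.55 and -0.50). Within pairs, the median change of the mitosis genes was 0.25 for RN-1 and 0.13 for GSK690, and that of the replication genes 0.23 and 0.03.

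Of 16 genes of antigen presentation by class I molecules tested, 12 rose at 72 h and 5 at 24 h, where 13% and 9.69% of all genes rose, with median responses of 0.51 and 0.31, and the change was above 0 in 13 (53.7% of all genes) with a median of 0.15. No change passed. PSMB9, a subunit of the immunoproteasome, stood at 8.49 to 14 FPKM with inhibitors and 2.38 to 4.10 FPKM in controls at 72 h and at 3.04 to 5.57 FPKM against 1.4 to 2.95 FPKM at 24 h (change 0.64, adjusted p = 0.718). ERAP2, which trims peptides in the endoplasmic reticulum, was holding, with responses of 0.63 and 0.65. The interferon response list had a median of 0.34 at 72 h and 0.33 at 24 h, with 10 and 7 of 33 genes risen.

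Genes of neutrophil granules and of cholesterol synthesis were counted in the same way, beside 12.7% of all genes that fell at 72 h, 11.2% that fell at 24 h and 53.7% with a change above 0. Of 8 granule genes, 4 fell at 72 h and 2 at 24 h, with medians of -0.76 and -0.30, and the change was above 0 in 1 of the 8 (median -0.48), with none passing. PRTN3, the proteinase 3 of primary granules, stood at 77.3 to 130 FPKM with inhibitors and 203 to 248 FPKM in controls at 72 h, and at 391 to 717 FPKM against 565 to 927 FPKM at 24 h. Its groups overlapped at 24 h, and every library of PRTN3 was lower at 72 h than at 24 h (change -0.94 ± 0.52). CTSG, the cathepsin G of the same granules, fell at both times (-0.79 and -0.57). MPO passed at neither time (0.04 and 0.17). Of 23 genes of cholesterol synthesis, 15 fell at 72 h and 7 at 24 h, with medians of -0.51 and -0.33, and the change was above 0 in 3 (median -0.14), again with none passing. SQLE, the squalene epoxidase, stood at 36.9 to 56.9 FPKM with inhibitors and 63.5 to 83.6 FPKM in controls at 72 h and at 39.1 to 47.7 FPKM against 57.3 to 75.6 FPKM at 24 h. The groups of SQLE overlapped at neither time, and it was holding, with responses of -0.71 and -0.57.

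As many genes of monocytes and macrophages rose at 72 h as at 24 h. Of 16 tested, 11 rose at 72 h and 11 at 24 h, where 13% and 9.69% of all genes rose. The median responses were 1.33 and 1.07, the highest of the lists at both times. Holding genes numbered 5 of the 16, against 12.3% of all genes. CSF1R, the receptor of the macrophage growth factor, stood at 8.75 to 12.6 FPKM against 3.42 to 3.59 FPKM at 72 h and at 5.94 to 7.14 FPKM against 1.35 to 2.45 FPKM at 24 h. Inhibitor and control levels of CSF1R were both higher at 72 h, and its change was -0.07 with an interval of -0.42 to 0.28. CTSS, a lysosomal protease of antigen-presenting cells, had responses of 1.35 and 1.37. GPR84, a fatty acid receptor of myeloid cells, had responses of 2.46 and 1.72, with a change of 0.74 that did not pass (adjusted p = 0.0936). Within this list the changes thus ran in both directions, and their median was -0.06. None of the 16 passed for a change in response. At an unadjusted limma p under 0.05 there were 6 of the 16 (37.5%), against 5.23% of all genes.

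**Figure D5:**
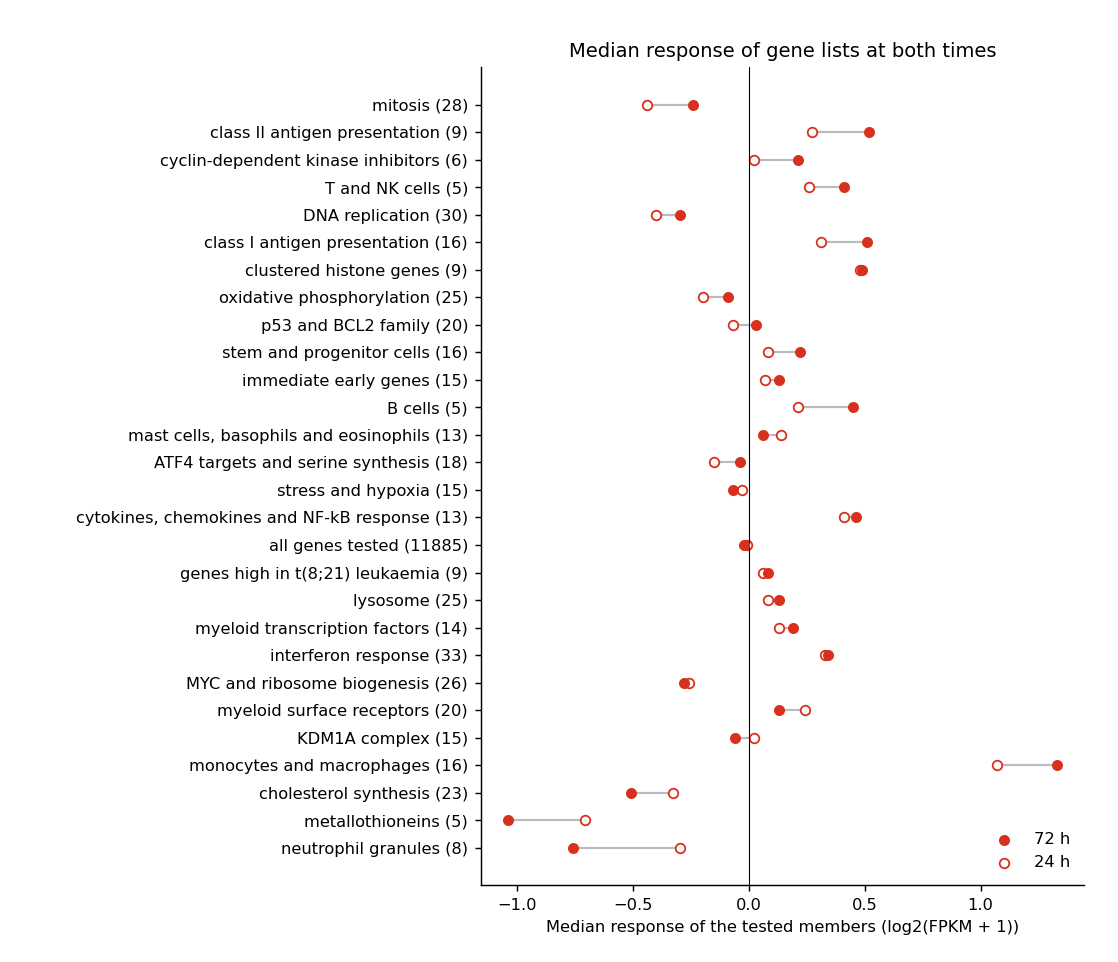
For each gene list with at least 5 tested genes (number in brackets) and for all genes tested, the horizontal axis gives the median response in log2(FPKM + 1) at 72 h (filled) and 24 h (open), sorted by the median change. Mitosis stands at -0.24 and -0.44, neutrophil granules at -0.76 and -0.30, and monocytes and macrophages at 1.33 and 1.07.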

How the data were processed

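RNA of 32 cultures was sequenced, with 2 biological replicates a group per the labels. The authors deposited FPKM per gene and library, and the submitters' processing notes name TopHat 1.4.1, Cufflinks and hg19, with no role for each. The authors' list of titles names the opposite cell line for 16 libraries, all at 72 h; grouping followed the titles of the labels. Each 72 h Kasumi-1 library correlated at a Pearson r of at least 0.9736 (mean) with Kasumi-1 at 24 h, and of at most 0.8632 with SKNO-1 at 24 h.

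Of 23073 genes, the 11890 that reached 1 FPKM in 2 or more of the 32 libraries were kept. Missing values (102, in 30 genes) were dropped. limma (3.58.1, R 4.3.3) was fitted to log2(FPKM + 1) of the deposited values, 32 libraries in 16 groups, with the prior variance allowed to follow expression (5.23 prior and 16 residual degrees of freedom). Tests were 2-sided, and p-values were adjusted by Benjamini-Hochberg over all genes tested in a contrast. The fit was tested on simulated data. Python 3.11.15 was used for tables (pandas 2.3.3 and numpy 2.4.6) and plots (matplotlib 3.10.9).

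The genes, lists and tests were chosen with earlier results of these data known. The rule for named genes took the 10 growing genes with the largest change, all fading genes, the 6 upward and 4 downward holding genes with the largest mean response, list members whose change passed, and 13 genes whatever their values. Other list members were chosen as examples after their values were seen. Lists were counted, not tested. The counts cover all genes, but 1 gene of the 24 and some list members and markers are not reported here by name or value. Alternatives changed the pseudocount (0.1), the filter (none), the scaling (quantile, or the median of ratios), the libraries fitted (Kasumi-1 alone, or each one left out), the control (DMSO alone), the limit for holding genes and the replicate block.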

Additional observations from a re-analysis of the deposited data

Results flagged for a closer look

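The response to the inhibitors differed between 72 and 24 h, by the limma test of the difference itself, in 24 genes. The changes in response (72 h minus 24 h, log2(FPKM + 1)) of the 23 reported here were PI16 1.33, KCTD12 1.11, FXYD7 0.91, MARCKS 0.89, APOL3 0.83, BCAR3 0.83, RBPMS 0.81, COL6A2 0.76, IL21R 0.74, SPINK2 0.74, C12orf75 0.72, SLIT2 0.70, RGS18 0.65, MPZL1 0.64, LY9 0.63, ZCCHC24 0.62, C1orf186 0.60, ITM2A 0.59, GLMN 0.58, CERKL 0.54, PTPLA 0.54, TRBV28 0.50 and ENTPD1 -0.80. For GSK690 minus GSK690* alone, the same difference passed in PI16 (1.39), KCTD12 (1.29), SLIT2 (1.05), MPZL1 (1.01) and TRBV28 (0.71). With 2 replicates a group, no group was large enough for a check of single outlying libraries. The replicates of RN-1 at 72 h correlated least among the Kasumi-1 groups, at a Pearson r of 0.987. In the other Kasumi-1 groups this r ran from 0.9937 to 0.9956.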

How the results depend on the processing

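The counts of changed, growing and fading genes were 24, 23 and 1 as reported. With a pseudocount of 0.1 they were 15, 15 and 0, with no filter on low values 56, 45 and 8, in a fit on the 16 Kasumi-1 libraries 40, 35 and 5, and with DMSO alone as control 5, 5 and 0. Quantile normalization gave 4 fading genes and scaling by the median of ratios 5. Holding genes, 1460 as reported, were 917 with DMSO alone. Changed genes of the GSK690 pair, 5 as reported, were 2 with a pseudocount of 0.1, 13 with no filter, 2 with quantile normalization, 3 with the median of ratios and 1 in the Kasumi-1 fit. Those of the RN-1 pair, 0 as reported, were 6 with no filter and 4 in the Kasumi-1 fit. With no filter, 4 genes passed for RN-1 against GSK690 and 3 for GSK690* against DMSO. Leaving out each library in turn gave 14 to 30 changed, 14 to 27 growing, 0 to 3 fading and 954 to 1452 holding genes, 0 to 4 for the RN-1 pair, 0 to 7 for the GSK690 pair, 0 to 1 for GSK690* against DMSO and 0 to 2 for the difference between lines. The cause of these shifts was not tested, beyond the larger number of genes tested with no filter (17991) and the fewer libraries.

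Same-numbered replicates deviated together with a correlation of 0.0431 to 0.481 over 12 pairs of groups, positive in all 12 and above 0.1 in 10 of 12. That is a hint of a shared replicate effect, but the labels name none and the rule used here asked for more than 0.1 in every pair, so the block was kept as an alternative. With a replicate block, 129 genes changed, 103 growing and 22 fading, with 2493 holding genes, 41 for the RN-1 pair, 14 for the GSK690 pair and 12 for the difference between lines. All 24 genes passed with the block, and LYZ did too (-0.52, adjusted p = 0.0484).

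Of the 24 genes, 14 lost their call with a pseudocount of 0.1, 7 with quantile normalization, 4 with the median of ratios, 7 in the Kasumi-1 fit and 19 with DMSO alone, and none changed sign under any alternative run. The unknown depth limits what can be said of genes under 1 FPKM.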

Other observations

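Several genes and gene groups not described in detail above also had responses at both times. TNF, an inflammatory cytokine, had a response of 1.5 at 72 h and 0.69 at 24 h, with 4.23 to 9.94 FPKM against 1.19 to 2.75 FPKM and 1.54 to 3.08 FPKM against 0.753 to 1.30 FPKM (inhibitors against controls). CCL5, a chemokine of T cells and monocytes, fell at 72 h (-0.83) and did not pass at 24 h (-0.25), with a change of -0.58 ± 0.15 (adjusted p = 0.169). CXCR4, a chemokine receptor, rose by 0.92 and 0.39, and CD180, a relative of the Toll-like receptors, fell at both times (-1.47 and -0.97). Over all genes, 12.7% fell at 72 h and 11.2% at 24 h. Of 5 metallothionein genes, which bind heavy metals, 3 fell at 72 h and 1 at 24 h, with medians of -1.04 and -0.71. Of 25 genes of oxidative phosphorylation 1 fell at 72 h and 7 at 24 h, with medians of -0.09 and -0.20. No change in response passed in any of these.

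The largest change by size belonged to LY75-CD302, a readthrough locus that shares exons with its neighbours, at -2.29 ± 0.68 (adjusted p = 0.360). ANKHD1-EIF4EBP3, another readthrough locus, had 1.52 ± 0.68 (adjusted p = 0.926). Neither passed, and how the reads of such loci were assigned is not given in the sources used here.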
